A study of Rattus norvegicus with 232 samples.

Results

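The endocannabinoid system of the rat brain was described through 9 genes, the receptor Cnr1 and the enzyme genes Dagla, Daglb, Mgll, Abhd6, Abhd12, Napepld, Faah and Naaa. The members were chosen by name, and each of the 9 was present once among the 20859 RefSeq genes of the most recent deposited gene table. RNA was taken from whole brain of rats of the Hybrid Rat Diversity Panel (HRDP), a collection of inbred strains. Where the labels stated them, treatment was given as none and sex as male, and they gave no age. The table held 214 libraries of the 232 samples, which came from 197 animals of 74 strains once repeat libraries of 1 animal were averaged. The comparisons used the 69 strains with at least 2 animals (192 animals). Of these, 30 belonged to the HXB/BXH recombinant inbred family, whose progenitors are SHR/OlaIpcv and BN-Lx/Cub. A further 16 belonged to the FXLE/LEXF family of F344/Stm and LE/Stm. The other 23 were classic inbred strains, the progenitors BN-Lx/Cub, SHR/OlaIpcv and F344/Stm among them. LE/Stm was represented by 1 animal, and SHR/OlaIpcv by 2 animals, 1 with 12 libraries in the table and the other with 6. In a recombinant inbred family each strain is fixed for a mosaic of its 2 progenitor genomes, so a gene whose level is set by a local variant is expected to split such a family into groups.

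Endocannabinoids are lipid messengers that neurons make on demand. They travel backwards across the synapse to the cannabinoid receptor CB1, the product of Cnr1, which lowers transmitter release from the presynaptic terminal. The messenger 2-arachidonoylglycerol (2-AG) is made by the diacylglycerol lipases DAGLα and DAGLβ (Dagla and Daglb) and is broken down by monoacylglycerol lipase (Mgll) and by the serine hydrolases ABHD6 and ABHD12. Anandamide and its relatives, the N-acylethanolamines, are released from membrane phospholipids by NAPE-PLD (Napepld). Fatty acid amide hydrolase (Faah) degrades anandamide, and the lysosomal acid amidase NAAA (Naaa) prefers palmitoylethanolamide.

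The deposited values were on a log2 scale after the submitters' regularized-log transformation, so a difference of 1 would be a doubling of the transformed level. They were not corrected for transcript length, and levels are therefore compared between strains and not between genes. The values held no read counts, and the depth behind each value is unknown. Library medians lay between 8.18 and 8.42. Genes that mark oligodendrocytes, astrocytes, microglia, cortical, striatal and cerebellar cells were all at brain-like levels (32 of 32 had a mean above the table median of 8.32). The only LE/Stm animal stood apart, since its 4 liver genes (Alb, Apoa2, Fgb and Serpina1) averaged 19.1 against a median of 7.94 over animals. Of the 74 strains, 62 had libraries in at least 2 of 17 sequencing batches, whereas all animals of LEW/SsNHsd and F344/NHsd were in batch 11. No batch held libraries of both recombinant families, so family and batch cannot be told apart in tests over all strains. No label said whether animals of 1 strain came from separate litters, so the p-values measure the spread between these animals only. Whole tissue was measured, and fewer cells of a type cannot be told apart from less RNA per cell.

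From the lowest to the highest of 69 strains, the ranges ran from 0.26 log2 units in Abhd6 (1.20-fold) to 0.71 in Dagla (1.63-fold). In no member were 2 neighbouring strains in the order of strain means further apart than 1 standard deviation (SD) over animals within a strain, and 4.56% of all genes had such a gap, so most genes were alike in this.

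**Figure D1:**
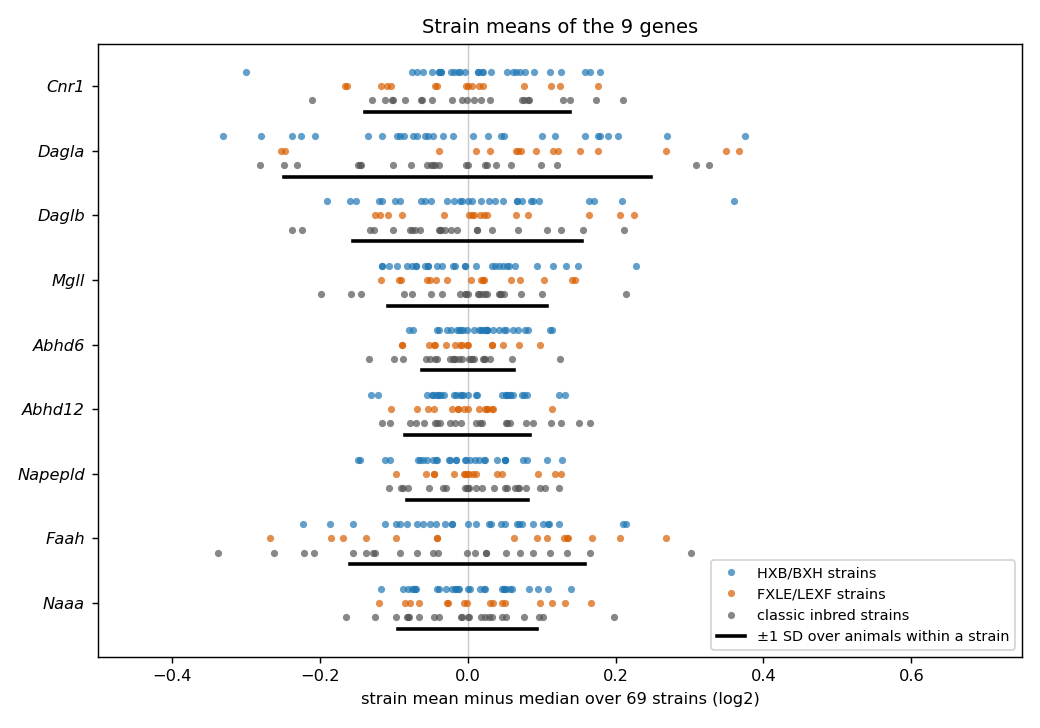
Strain means of the 9 genes as differences from each gene's median over 69 strains (x axis, log2), with 1 point per strain coloured by panel and a black bar for ±1 SD over animals within a strain. Dagla had the widest range of strain means (0.71) and Abhd6 the narrowest (0.26).

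The share of variance between strains (R2, the between-strain sum of squares over the total) was tested with limma's moderated F-test over all genes, with Benjamini-Hochberg adjustment at a false discovery rate of 5%. In this layout a gene with no strain effect is expected at an R2 of 0.356. Over all 69 strains, 6 of the 9 members passed (Faah, Napepld, Mgll, Abhd6, Abhd12 and Naaa), against 36.8% of all genes. The median R2 of the members was 0.484, and that of all genes was 0.434. The 3 members that did not pass were the receptor Cnr1 and the 2-AG synthases Dagla and Daglb. The extreme strains named below were picked by these same values. A lack of overlap between their animals is therefore a description and no test, and it was also seen in Dagla and Daglb.

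**Figure D2:**
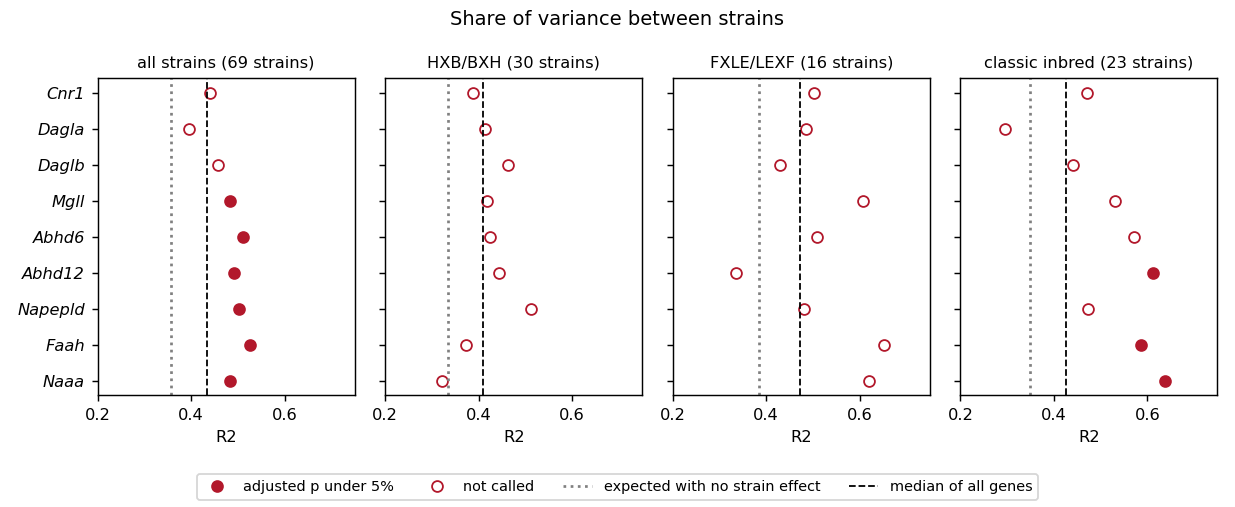
R2 of the 9 genes (x axis, share of variance between strains) over all strains and within each of the 3 panels, with filled points for an adjusted p under 5%. The dotted line is the value expected with no strain effect (0.356 over all strains) and the dashed line the median of all genes (0.434 over all strains), and Faah lies furthest to the right over all strains (0.526).

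The receptor gene Cnr1 did not pass over all strains. Its strain means ran from 12.78 in HXB1/Ipcv to 13.29 in BN-Lx/Cub, with a median of 13.08. The 3 HXB1/Ipcv animals were at 12.66, 12.67 and 13.01, and the 3 BN-Lx/Cub animals at 13.58, 12.99 and 13.30. The groups overlapped by 1 animal, because the lowest BN-Lx/Cub animal was just under the highest HXB1/Ipcv animal. The R2 of Cnr1 was 0.441 (adjusted p = 0.0949, limma), with an SD of 0.138 over animals within a strain and of 0.099 over strain means. With the sequencing batch as a covariate the same test passed (adjusted p = 0.00866), in a fit in which 54.4% of all genes did, but with the batch taken from the sample titles it did not (adjusted p = 0.135). Its adjusted p over 14 alternatives ran from 2.87e-09 to 0.471.

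The 2-AG synthases did not pass. For Dagla, which makes most of the 2-AG in the adult brain, strain means ran from 10.88 in HXB10/Ipcv (animals at 10.95 and 10.82) to 11.59 in HXB17/Ipcv (animals at 11.70, 11.63 and 11.44). These animals did not overlap, but BN-Lx/Cub alone covered most of that span, with animals at 10.38, 11.48 and 10.94. The R2 of Dagla was 0.396 (adjusted p = 0.249), the lowest of the 9 members, and its SD within strains (0.248) was the largest. For Daglb, the second lipase, the lowest strain was M520/N (9.77, 9.91 and 10.05) and the highest was HXB1/Ipcv (10.47, 10.62 and 10.44). All 3 HXB1/Ipcv animals were above all 3 M520/N animals, and the gap of 0.14 between HXB1/Ipcv and the next strain, LEXF1C/Stm, was the largest between neighbours in any member. The R2 of Daglb was 0.457 (adjusted p = 0.0524, range 0.00152 to 0.359 over 14 alternatives), which missed the threshold. It passed in 5 of the 11 alternatives that kept all replicate numbers. Among them was the sequencing batch as a covariate (adjusted p = 0.00645), where 54.4% of all genes passed. The batch from the sample titles was another (adjusted p = 0.00874), where 43.1% did.

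Among the 2-AG hydrolases, Mgll, the main 2-AG hydrolase of the brain, was lowest in BN-Lx/Cub (12.55, 12.77 and 12.67) and highest in HXB2/Ipcv (13.05 and 13.13). The animals of these strains did not overlap, and the range of strain means was 0.43 (1.34-fold). The R2 of Mgll was 0.484 (adjusted p = 0.0254). Abhd6, a membrane hydrolase on the postsynaptic side, was the most uniform member. It was lowest in COP/CrCrl (10.30 and 10.45) and highest in SHR/OlaIpcv (10.62 and 10.64), a range of 0.26, and its SD within strains was 0.062. Its R2 was 0.510 (adjusted p = 0.0277). Abhd12, whose product also hydrolyses lysophosphatidylserine, ran from 12.16 in HXB17/Ipcv (12.20, 12.07 and 12.22) to 12.46 in BDIX/NemOdaMcwi (12.46 in both animals). The 3 SS/JrHsd animals were nearly as high (12.46, 12.42 and 12.45), and the R2 was 0.491 (adjusted p = 0.0278).

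Napepld, the phospholipase that releases N-acylethanolamines, was lowest in HXB17/Ipcv (9.74, 9.74 and 9.72) and HXB1/Ipcv (9.73, 9.70 and 9.77). It was highest in BXH8/Cub (9.99, 9.99 and 10.05) and LEXF5/Stm (10.04 and 9.98). The animals of each of these strains lay closer together than 1 SD within strains (0.082), and the low and the high strains did not overlap. The range of strain means was 0.28 (1.21-fold), and the R2 was 0.503 (adjusted p = 0.0178).

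Faah, the amidase that ends anandamide signalling, had the largest R2 of the 9 members (0.526, adjusted p = 0.00179). Its strain means ran from 10.18 in PVG/Seac to 10.82 in SR/JrHsd, a range of 0.64 (1.56-fold). The PVG/Seac animals were at 10.24, 10.22 and 10.09, and those of LEXF2C/Stm, the next strain, at 10.22, 10.25 and 10.30. At the other end LEXF11/Stm had animals at 10.63 and 10.95, and SR/JrHsd at 11.06, 10.64 and 10.76. Every animal of the 2 low strains was below every animal of the 2 high strains, which were picked by these values. Naaa ran from 8.49 in M520/N (8.50, 8.58 and 8.40) to 8.85 in SHRSP/A3NCrl (8.93 and 8.78), close to FXLE20/Stm (8.86, 8.78 and 8.83), with an R2 of 0.484 (adjusted p = 0.0298).

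The 6 calls were not equally firm. Faah and Napepld passed in each of the 11 alternatives that kept all replicate numbers, whereas Abhd6 and Abhd12 passed in 9 of those 11 and Mgll and Naaa in 8. A pass in another deposited gene table does not show the same differences between strains, since strain means of Faah in the reconstructed genes and of Napepld in the earliest table correlated with those used here at only 0.232 and 0.390. When the animals of 1 replicate number were left out (some strains then lost no animal), between 0 and 2 members passed (Faah and Abhd12 without replicate 3, none without replicate 1 or 2), as the share of all genes that passed fell to between 14.9% and 29.3%.

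Some strains were extreme in several members. HXB1/Ipcv was the lowest strain for Cnr1, the highest for Daglb and the next to lowest for Napepld. HXB17/Ipcv was the highest for Dagla and the lowest for Abhd12 and Napepld. M520/N was the lowest for Daglb and for Naaa, and SR/JrHsd was the highest for Faah and the next to highest for Mgll. BN-Lx/Cub had the highest Cnr1, the lowest Mgll and the next to lowest Dagla and Daglb, and much of this came from 1 animal. BN-Lx/Cub animal 1 had the highest Cnr1 (13.58) and the lowest Dagla (10.38), Daglb (9.68) and Faah (10.01) of all 192 animals. The same animal had the highest mean of 4 Y-linked genes (Ddx3y, Kdm5d, Eif2s3y and Uty), 9.33 against a median strain mean of 8.61, and the part of that in these values was not tested.

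Within the recombinant families no member passed the test at 5%. In HXB/BXH (30 strains, 88 animals) the count was 0 of 9 by limma, against 19.1% of all genes, and 2 members (Daglb and Napepld) had an unadjusted p under 0.05, as 32.6% of all genes did. Napepld had the largest R2 there (0.512, adjusted p = 0.0993), followed by Daglb (0.464, adjusted p = 0.118), against 0.333 expected with no effect. With the sequencing batch as a covariate both passed, at an adjusted p of 0.00759 for Daglb and of 0.0443 for Napepld, among 32.1% of all genes. Over 14 alternatives these values reached up to 0.477 for Daglb and 0.499 for Napepld.

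In FXLE/LEXF (16 strains, 40 animals) the count was again 0 of 9 by limma, against 5.00% of all genes, and 1 member (Faah) had an unadjusted p under 0.05, as 22.8% of all genes did. The R2 of Faah was 0.651 (adjusted p = 0.0759), with 0.385 expected with no effect. Its strain means ran from 10.25 in LEXF2C/Stm to 10.48 in FXLE12/Stm in 7 strains and from 10.58 in LEXF1C/Stm to 10.79 in LEXF11/Stm in the other 9. The 7 lower strains were LEXF1A/Stm, LEXF2C/Stm and every FXLE strain but FXLE15/Stm, and the other 9 were LEXF strains and FXLE15/Stm. The part of being an FXLE or a LEXF strain was not tested. The gap was seen after the values were known, it was smaller than the SD over animals within these strains (0.147), and a fit of normal mixtures gave a single cluster. The animals of the F344/Stm progenitor (10.47, 10.28 and 10.40) were in the span of the 7 lower strains, and the only LE/Stm animal (10.85) was above every strain mean. That LE/Stm animal is the one with the high liver genes, and their part in its Faah value was not tested. Leaving out replicate 3 brought Faah past the threshold in this family (adjusted p = 0.0121), whereas the range over 12 alternatives reached 0.803.

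Among the 23 classic inbred strains (64 animals) 3 members passed, against 18.6% of all genes. These were Naaa (R2 0.638, adjusted p = 0.0218), Abhd12 (R2 0.613, adjusted p = 0.0360) and Faah (R2 0.587, adjusted p = 0.0170), with 0.349 expected with no effect. Of 10 alternatives that kept all replicate numbers, Faah passed in 9, Naaa in 6 and Abhd12 in 4, and without the animals of any 1 replicate number no member passed. Whether the strain effect of a member differed between the panels was not tested.

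A split of a recombinant family into groups was looked for with mixtures of 1 to 3 normal distributions of equal variance (mclust), as a description with no test. In HXB/BXH the strain means of each member formed a single cluster, whereas 11.7% of all genes had several. In FXLE/LEXF, 1 member (Daglb) had several clusters, and so did 15.7% of all genes. Its 3 clusters held LEXF7B/Stm, LEXF2C/Stm, LEXF8A/Stm and LEXF10A/Stm at 10.02 to 10.06, 9 strains in the middle, and LEXF5/Stm, FXLE15/Stm and LEXF1C/Stm at 10.31 to 10.37. The progenitors did not bracket these clusters, since F344/Stm was at 10.17, 9.99 and 10.17 and the LE/Stm animal at 10.17. With a required gain of more than 6 in the Bayesian information criterion, or with the batch as a covariate, Daglb had 1 cluster.

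The progenitors and 2 further pairs of inbred strains were compared by contrasts within the fit over all animals. No member passed in any of the 4 contrasts. For BN-Lx/Cub minus SHR/OlaIpcv the count was 0 of 9 by limma, against 4.51% of all genes, with 3 members under an unadjusted p of 0.05, as were 19.2% of all genes. The largest difference was in Mgll, with BN-Lx/Cub animals at 12.55, 12.77 and 12.67 and SHR/OlaIpcv animals at 12.91 and 12.96. All BN-Lx/Cub animals were below both SHR/OlaIpcv animals, whose values were means of 12 and 6 libraries. Single libraries of SHR/OlaIpcv animal 1 ran from 12.53 to 13.14, across the values of all BN-Lx/Cub animals. The Mgll difference was -0.27 (95% interval -0.47 to -0.07, adjusted p = 0.0968). This difference passed in 1 of 14 alternatives, without BN-Lx/Cub replicate 2 (adjusted p = 0.0451), and its adjusted p reached 0.966. With the sequencing batch as a covariate, 0.292% of all genes passed in this contrast. Abhd6 was also lower in BN-Lx/Cub (10.42, 10.49 and 10.47 against 10.62 and 10.64, difference -0.17, adjusted p = 0.0919), and Napepld was higher (9.98, 9.93 and 9.94 against 9.83 and 9.72, difference 0.17, adjusted p = 0.188).

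F344/Stm minus LE/Stm rested on 1 LE/Stm animal, assumed to vary like the others, and gave 0 of 9 calls against 0.796% of all genes, with 2 members under an unadjusted p of 0.05, as were 12.8% of all genes. Faah differed by -0.46 (95% interval -0.82 to -0.10, adjusted p = 0.379) and Naaa by -0.23 (-0.46 to -0.01, adjusted p = 0.383). The LE/Stm animal was at 10.85 for Faah and at 8.84 for Naaa, above the 3 F344/Stm animals in both. This is the animal with the high liver genes, and their part in the differences was not tested.

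LEW/SsNHsd minus F344/NHsd, a pair often set against each other in drug studies, gave 0 of 9 calls against 0.959% of all genes, and 0 members had an unadjusted p under 0.05, as 6.06% of all genes did. The differences lay between -0.11 (Dagla) and 0.12 (Faah), with 95% intervals reaching 0.11 (Abhd6) to 0.40 (Dagla) to either side. Differences within these intervals could not be told from none here. The intervals are not adjusted over all genes, so larger differences could also miss the threshold. SHR/OlaIpcv minus WKY/NCrl, the hypertensive strain against its usual control, gave 0 of 9 calls against 0.825% of all genes, and 1 member had an unadjusted p under 0.05, as 8.49% of all genes did. That was Abhd6, with SHR/OlaIpcv at 10.62 and 10.64 and WKY/NCrl at 10.53, 10.42 and 10.44 (difference 0.17, 95% interval 0.05 to 0.29, adjusted p = 0.278). SHR/OlaIpcv served in both of its contrasts, so these values of Abhd6 share the same 2 animals. Those values are means of 12 and 6 libraries, and single libraries of animal 1 ran from 10.47 to 10.73 for Abhd6.

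**Figure D3:**
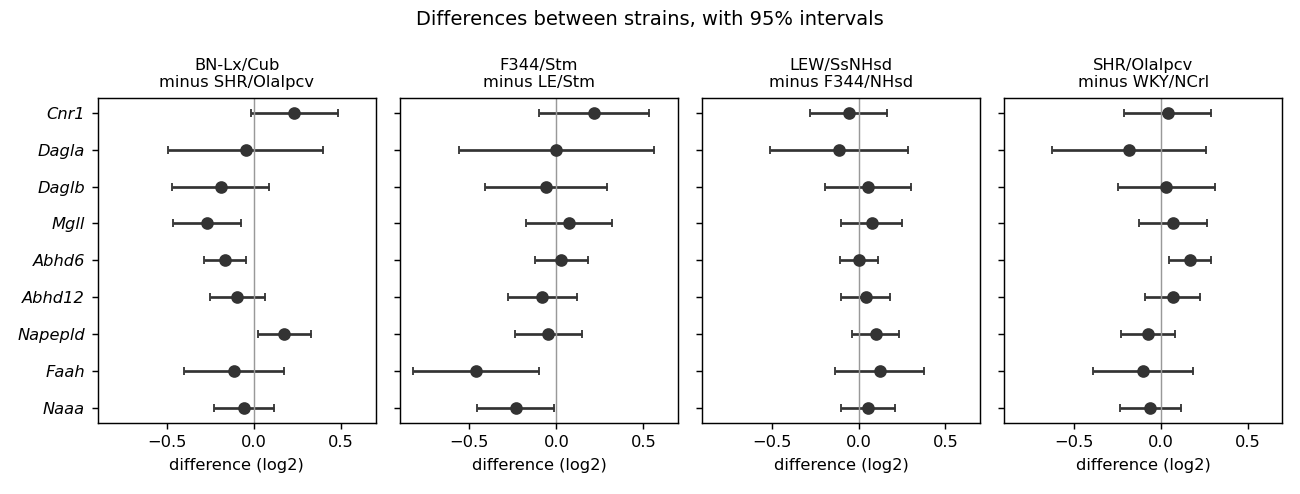
Differences of the 9 genes (x axis, log2, with 95% intervals) in 4 strain contrasts, each named first strain minus second strain. The Faah difference between F344/Stm and LE/Stm is the largest (-0.46), and no difference passed the 5% false discovery rate.

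The repeat libraries of each SHR/OlaIpcv animal were in different sequencing batches. Their spread therefore joins that of the measurement with differences between batches. Animals of other strains lay in fewer batches, and the part of the batch was not tested. Spans of single libraries are set below against those of strain means, which average several animals. The share of all genes with a wider span was not computed. A span can only widen as libraries are added, and animal 1 had 12 libraries against 6 of animal 4. All libraries of animal 4 were also in later-numbered batches than most of those of animal 1. The spans of these animals therefore cannot be compared directly. Over 12 libraries of animal 1, the SD exceeded the SD over animals within a strain in 6 of the 9 members, as in 55.9% of all genes, and over 6 libraries of animal 4 in 4 members, as in 29.5% of all genes. Dagla had the largest SD over the 12 libraries of 1 animal (0.248, from 10.73 to 11.54), followed by Daglb (0.237, from 9.49 to 10.35). The span over these 12 libraries was wider than the range of the 69 strain means in 6 of the 9 members (Cnr1, Dagla, Daglb, Mgll, Abhd6 and Napepld, the last 3 of which passed over all strains), whereas the span over the 6 libraries of animal 4 was so in 0 of 9. Faah ran from 10.06 to 10.66 over the same libraries (SD 0.183), against an SD of 0.135 over strain means. Abhd12 ran from 12.22 to 12.39 (SD 0.042), against an SD of 0.084 over animals within a strain, and was the most repeatable member in that animal, whereas in animal 4 that was Abhd6 (SD 0.039).

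**Figure D4:**
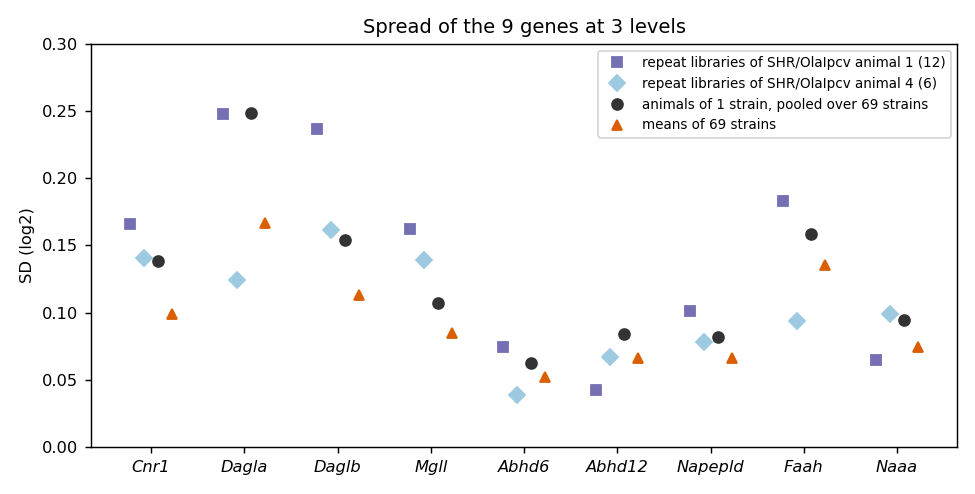
SD (y axis, log2) of the 9 genes over 12 repeat libraries of SHR/OlaIpcv animal 1, over 6 repeat libraries of animal 4, over animals within a strain and over the 69 strain means. For Daglb, the SD over repeat libraries (0.237 and 0.161) exceeded that over animals (0.154) and over strain means (0.113). Repeat libraries of 1 animal were in different sequencing batches.

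Transcripts of the members were then examined. Of 39 RefSeq transcripts listed for the 9 genes, 22 were matched in the deposited transcript table. That table holds some values beyond the usual range of log2 expression (21 over 30), so its differences are given on the deposited scale with no fold. Reads shared between transcripts of 1 gene are assigned by estimation, so a level of a single transcript is less certain than that of its gene. Over all strains 4 of the 22 passed, against 13.4% of all transcripts. These were NM_001369126.1 of Faah (R2 0.523, adjusted p = 0.00964), XM_006235910.4 of Napepld (R2 0.578, adjusted p = 0.000117) and, below the table median and named after their values were seen, XM_039107244.1 of Napepld (R2 0.543, adjusted p = 0.00145) and XM_006251767.4 of Abhd6 (R2 0.497, adjusted p = 0.0241). For Cnr1, Dagla, Daglb, Mgll, Abhd12 and Naaa no matched transcript passed.

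In HXB/BXH, a test added after these values were seen, 2 of the 22 transcripts passed, both of Napepld, against 6.84% of all transcripts. XM_006235910.4 had an R2 of 0.692 (adjusted p = 1.93e-05), the largest of any member transcript, and XM_039107244.1 an R2 of 0.577 (adjusted p = 0.00861). Strain means of XM_006235910.4 fell into 2 clusters, 11 strains from 5.86 (BXH10/Cub) to 7.04 (HXB18/Ipcv) and 19 strains from 7.39 (HXB31/Ipcv) to 8.12 (HXB4/Ipcv). The clusters remained with a required gain of more than 6 in the Bayesian information criterion. The lower strains were BXH8/Cub, BXH10/Cub, BXH13/Cub, HXB3/Ipcv, HXB7/Ipcv, HXB15/Ipcv, HXB18/Ipcv, HXB20/Ipcv, HXB24/Ipcv, HXB27/Ipcv and HXB29/Ipcv. Cluster means were 6.46 ± 0.39 (SD over strains, n = 11) and 7.87 ± 0.17 (n = 19), a difference of 1.41 on the deposited scale that defined the clusters and was not tested. Animals of the lower strains ran from 3.72 to 7.53 and those of the upper strains from 6.37 to 8.51, so single animals overlapped. HXB7/Ipcv, for example, was at 5.82, 5.92 and 6.82, and BXH11/Cub at 7.89, 7.84 and 7.75. The adjusted p of XM_006235910.4 ran from 1.57e-05 to 0.184 over 9 alternatives and missed the threshold only without replicate 1. The call of XM_039107244.1 was less firm. Its adjusted p (limma) missed the threshold without replicate 1 (0.187), 2 (0.350) or 3 (0.0717). Its SD over animals within a strain was 1.88 over all strains, and HXB4/Ipcv animals, for example, were at 6.22, 5.87 and 0.55.

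**Figure D5:**
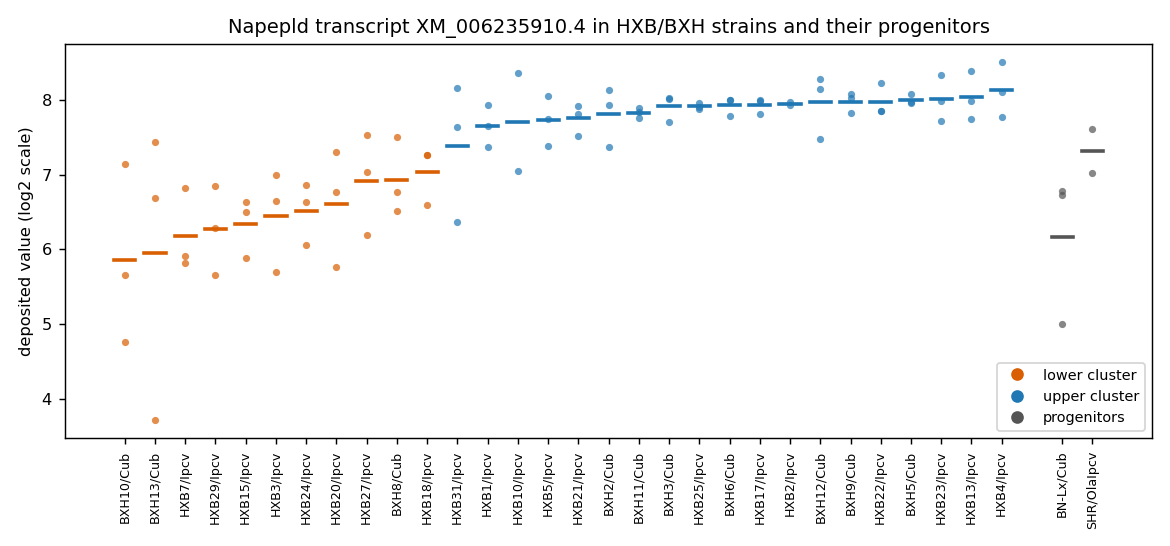
Deposited values (y axis, log2 scale) of the Napepld transcript XM_006235910.4 in the HXB/BXH strains, ordered by strain mean, and in the progenitors BN-Lx/Cub and SHR/OlaIpcv, with 1 point per animal. Means of 11 strains lie between 5.86 and 7.04 and those of 19 strains between 7.39 and 8.12, with BN-Lx/Cub animals at 5.01 to 6.78 and SHR/OlaIpcv animals at 7.02 and 7.61.

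Besides the Napepld transcripts, XM_039093252.1 of Abhd6 had more than 1 cluster in HXB/BXH, which set 1 strain apart from 29. The share of all transcripts with more than 1 cluster was not computed, so how common such clusters are is unknown.

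In the progenitors, BN-Lx/Cub animals were at 5.01, 6.78 and 6.73 for XM_006235910.4 and SHR/OlaIpcv animals at 7.61 and 7.02. The BN-Lx/Cub mean of 6.17 was within the range of the lower strains, and the SHR/OlaIpcv mean of 7.32 was in the gap between the clusters. All 3 BN-Lx/Cub animals were below both SHR/OlaIpcv animals, but the difference of -1.14 (95% interval -2.29 to 0.0029) did not pass (adjusted p = 0.611), and 0 of 22 member transcripts did in this contrast by limma, against 0.791% of all transcripts, with 2 under an unadjusted p of 0.05, as were 8.20% of all transcripts. For XM_039107244.1, 7 of the 30 strains formed a lower cluster, and 6 of them were among the 11 lower strains of the first transcript, but under the stricter criterion this transcript formed a single cluster. The correlation of the strain means of these transcripts was 0.625 over 30 strains, given as a description, since they share reads. The third matched transcript, NM_199381.1, formed a single cluster and had a mean of 6.27 in the 11 strains and of 6.20 in the 19. The gene-level value of Napepld was 9.92 in the 11 strains (9.82 to 10.01) and 9.84 in the 19 (9.73 to 9.93), so that the lower transcript went with a slightly higher gene level (r = -0.431 over 30 strains). In the other panels, strain means of XM_006235910.4 ran from 6.56 in LEXF7B/Stm to 8.09 in LEXF1C/Stm and from 6.06 in BN/NHsdMcwi to 7.97 in PVG/Seac.

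The sequences before the start of Napepld and Faah are shown because these genes passed in the most alternatives. They were read from RefSeq (GRCr8), which held such a sequence for 7 of the 9 genes, and cover the 250 bases before the start. Napepld is on the plus strand (chr4:14253010-14253259) and Faah on the minus strand (chr5:134735397-134735646), each written 5′ to 3′ with GC boxes (GGGCGG or CCGCCC, searched on both strands) in capitals.
Napepld: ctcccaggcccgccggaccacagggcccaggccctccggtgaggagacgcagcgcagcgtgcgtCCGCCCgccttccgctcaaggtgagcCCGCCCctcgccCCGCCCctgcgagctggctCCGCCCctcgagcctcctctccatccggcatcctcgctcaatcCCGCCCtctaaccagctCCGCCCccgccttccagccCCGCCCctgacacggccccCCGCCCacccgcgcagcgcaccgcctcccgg
Faah: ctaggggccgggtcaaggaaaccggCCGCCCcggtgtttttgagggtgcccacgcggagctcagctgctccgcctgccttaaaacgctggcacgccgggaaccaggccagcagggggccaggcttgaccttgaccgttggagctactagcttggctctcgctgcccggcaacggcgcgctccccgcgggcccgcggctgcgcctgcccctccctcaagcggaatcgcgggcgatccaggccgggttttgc
The Napepld stretch held 8 GC boxes, all read on the other strand, and 29 CpG dinucleotides, and the Faah stretch held 1 GC box and 26 CpG dinucleotides. Of 33469 rat promoters of the same length 30.5% held a GC box, and the median number of CpG dinucleotides was 5. Neither stretch held a TATA box (TATAAA on both strands, in 12.9% of promoters) or a CCAAT box (CCAAT on both strands, in 34.0%). A match of letters is a description and not a binding site.

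Members varied together across strains in some pairs only. Of 36 pairs of members, 22 had a positive correlation of strain means over 69 strains, with no share over all gene pairs computed. The highest was that of the synthases Dagla and Daglb (r = 0.593), followed by Mgll with Daglb (r = 0.550) and Faah with Dagla (r = 0.460). Cnr1 ran against most of the enzymes, with a negative correlation in 6 of its 8 pairs (Mgll -0.432, Daglb -0.401, Dagla -0.363 and Faah -0.305), and was positive with Napepld (0.445). Deviations of the 192 animals from their own strain means had the same sign in 33 of 36 pairs and were often stronger, as for Faah with Dagla (0.794) and Cnr1 with Daglb (-0.583). All of these points share libraries and normalization, and no p is given.

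Marker lists moved with several members over the 69 strain means. The mean of the 4 Y-linked genes ran from 7.81 in LEW/Crl to 8.91 in BN-Lx/Cub, and all 4 genes were present in the table. Earlier results on these data had questioned the sex of the LEW/Crl libraries, which were kept among the 69 strains. The Y-linked mean correlated with Dagla at -0.570 (-0.666 without the 2 farthest strains) and with Cnr1 at 0.520 (0.536). It also correlated with Mgll at -0.483, with Faah at -0.430 and with Daglb at -0.421. The Cck interneuron list (Cck, Slc17a8, Vip and Htr3a, 2 of the 4 above the table median) ran from 8.48 in LEXF7B/Stm to 8.97 in LEXF5/Stm. It correlated with Abhd12 at 0.527 (0.457) and with Cnr1 at -0.032. Napepld correlated at 0.435 with the cortical glutamatergic list (11.2 in HXB10/Ipcv to 11.6 in SR/JrHsd) and at -0.425 with the choroid plexus list (9.37 in LEXF10B/Stm to 10.3 in BXH9/Cub). Strains extreme in a member could also be extreme in a list. HXB10/Ipcv, lowest for Dagla, had the highest liver mean (10.5 against a median of 7.97 over strains, 1 of 4 genes above the table median) and the lowest microglia (9.25) and cortical glutamatergic means. SR/JrHsd, highest for Faah, had the lowest olfactory bulb mean (6.09) and the highest striatal and cortical means (11.0 and 11.6), whereas COP/CrCrl, lowest for Abhd6, had the highest olfactory bulb mean (7.64). SHRSP/A3NCrl, highest for Naaa, had the lowest striatal mean (10.3). HXB2/Ipcv, highest for Mgll, had the highest level of Pomc (6.28 against a median of 5.20), the only pituitary gene of 3 in the table, and LEXF5/Stm, next to highest for Napepld, had the lowest astrocyte mean (13.2). The part of these lists in the strain effects was not tested.

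The genes most like each member that passed were found by the absolute correlation of strain means, among genes above the table median. They are the highest of many correlations, and no p is given. No member passed within HXB/BXH, so strain means there also carry the spread between animals and libraries. Some of the genes named passed over all strains and others did not. Of 36 such pairs, 5 were on the same chromosome and 4 had no position, and the part of position was not tested. Within the 30 HXB/BXH strains Mgll was followed most closely by Oaf (r = 0.914), Tor2a (0.903) and Il34 (0.900), the highest values of any member. For Faah the nearest were Ptprs (0.828), Ipo13 (0.827) and Plxnd1 (0.825), and Ipo13 lies on the same chromosome, 1.96 Mb away in the annotation deposited with the series. For Abhd12 they were Fbl (-0.780), Tti1 (0.748, 6.98 Mb away on the same chromosome) and Asb8 (0.722). For Napepld they were Pcdhb9 (0.725), Cd24 (0.722) and Tnfsf13 (0.715), for Naaa Rab5c (0.786), Ckmt1 (0.786) and Cox5b (0.782), and for Abhd6 Vps4a (0.737), Ipo5 (0.722) and Heatr5b (0.681). Over all 69 strains the values were lower, from 0.610 to 0.838 in size. The gene most like Napepld was then Grm5 (0.639), the metabotropic glutamate receptor that drives 2-AG synthesis, that of Mgll was Nsmf (0.838), and those of Faah, Abhd6, Abhd12 and Naaa were Ptpru (0.645), Vps4a (0.662), Ctsa (0.637) and Tm2d3 (0.632).

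Other genes of the pathway, from a list of 38 of which 35 were in the table, were read beside the members. Of these 35, 15 passed over all strains, where 36.8% of all genes did, with a median R2 of 0.440 against 0.434. In HXB/BXH 6 of the 35 passed, where 19.1% of all genes did, so that both counts were near those of all genes. Enzymes of synthesis and precursor supply passed in 5 of 8, led by Pla2g4e, a calcium-dependent N-acyltransferase that makes the substrate of NAPE-PLD (R2 0.839, adjusted p = 3.29e-24, strain means from 8.31 in BN/NHsdMcwi to 9.00 in HXB25/Ipcv). All 3 oxidising enzymes passed, led by the lipoxygenase Alox15 (R2 0.737, adjusted p = 1.94e-14), whose strain means from 6.62 in BXH13/Cub to 9.31 in BXH5/Cub covered a wider range than those of any member. Other receptors passed in 2 of 5, led by the nuclear receptor Ppara (R2 0.570, adjusted p = 0.0001). Partners of CB1 passed in 3 of 9, led by Cnrip1, which binds the tail of CB1 (R2 0.526, adjusted p = 0.00481), whereas Cnr1 itself did not pass. Receptors and G proteins that drive 2-AG synthesis passed in 2 of 6, led by the muscarinic receptor Chrm3 (R2 0.491, adjusted p = 0.0176), and carriers of the lipids in 0 of 4 by limma, with 1 of them under an unadjusted p of 0.05.

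Strain means of the members were compared between the deposited gene tables, which share animals. Correlations with the preceding Ensembl table over 57 strains lay between 0.933 (Naaa) and 0.974 (Napepld). With the earliest table, over 44 strains, they lay between 0.390 (Napepld) and 0.802 (Abhd12). With the reconstructed genes, over 69 strains, they lay between 0.232 (Faah, for the feature with the higher mean of 2) and 0.914 (Dagla). PVG/Seac and SR/JrHsd were also the lowest and the highest strain for Faah in the preceding table, as HXB17/Ipcv and BXH8/Cub were for Napepld. In the earliest table the lowest and highest strains were DA/OlaHsd and SR/JrHsd for Faah and HXB10/Ipcv and LEW/SsNHsd for Napepld, and in the reconstructed genes SHRSP/A3NCrl and FXLE20/Stm for Faah and HXB10/Ipcv and BXH8/Cub for Napepld.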

How the data were processed

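RNA-seq of rRNA-depleted total RNA from rat whole brain was used. Of the 232 samples, 214 libraries had a column in the main table. The deposited gene values were on a log2 scale, scaled and transformed by the authors (regularized log), with 5 values over 30 in the main table. The transcript and reconstructed-gene tables held more such values (21 and 46), and their values were treated as scores deposited by the authors. Per the submitters' processing notes, reads were trimmed with cutadapt (1.9.1), filtered with Bowtie2 (2.3.4.3 or 2.4.5), aligned with HISAT2 (2.1.0 or 2.2.1), assembled with StringTie (1.3.5 or 2.2.1), quantified with RSEM (1.3.1 or 1.3.3) and transformed with DESeq2. The genome build of the main table is not given in the sources used here, so genome positions of its genes are not printed. No counts were held by the tables used, and no depth, interval or detection limit from counting can be given.

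Libraries of 1 animal were averaged, 73 spike-in rows were removed, and 20859 genes were tested without a filter on low values with limma (3.58.1, R 4.3.3) and Benjamini-Hochberg adjustment over all genes. Clusters were fitted with mclust (6.1.1). The strain was the only term. Scripts were tested on simulated data. The batch label of a sample and that in its title differed in 26 samples, and both were tried. The members, the wider list, the marker lists and the tests were chosen with earlier results of these data known. Named besides the 9 members were the gene of each wider list with the highest R2 among those past 5%, the 3 genes most like each member that passed, the 2 highest and 2 lowest strains, and transcripts above the table median. The transcript test in HXB/BXH, the alternatives for it and for the wider list, the batch from the titles and the second animal with repeat libraries were added after the data were seen. Alternatives were a batch covariate, a replicate block, a mean-variance trend, a filter on low values and 1 library per animal. Further ones were strains with 1 animal, 3 other gene tables and leaving out the animals of each replicate number. In another, 6 animals that earlier results had set apart were left out. Of these, the main table held only those of LEW/Crl and the LE/Stm animal. Tests over strains then lost only the LEW/Crl animals.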

Additional observations from a re-analysis of the deposited data

How the results depend on the processing

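Of the single values of members and their transcripts recomputed under alternatives, 935 stayed on their side of the threshold, 52 lost the call and 26 gained one. Many of these values are shares of variance, which have no direction. Differences that were not called could change direction. For Cnr1, BN-Lx/Cub was above SHR/OlaIpcv in the main table, but SHR/OlaIpcv was the highest strain in the earliest table. Of the counts, 114 stayed within 1.5 times and 38 did not. Over all strains 3 members passed in the reconstructed genes, and without 1 replicate 0 to 2. In HXB/BXH 2 passed with either batch covariate and 1 in the earliest table. In FXLE/LEXF 1 passed with a trend, 1 in the preceding Ensembl table and 0 to 1 without 1 replicate. Among classic inbred strains 1 passed with the batch covariate, 1 in the preceding and 5 in the earliest table, 0 in the reconstructed genes and 0 without any replicate. Leaving out 1 animal gave 0 to 1 calls for BN-Lx/Cub minus SHR/OlaIpcv. The earliest table gave 1 call for F344/Stm minus LE/Stm and 2 for SHR/OlaIpcv minus WKY/NCrl, and the reconstructed genes 1 for the latter. Of the member transcripts 7 passed with the batch covariate and 0 to 3 without 1 replicate, and in HXB/BXH 1 passed above the table median and 0 to 1 without 1 replicate. The FXLE/LEXF clusters of Daglb became 0 members with clusters under a stricter criterion, with the batch or in the reconstructed genes, 8 in the preceding table, which holds 5 such strains, and 0 to 3 without 1 replicate. Of the wider list 23 passed with the batch covariate and 6 to 12 without 1 replicate. Leaving out 1 replicate number leaves fewer animals in most strains, and the causes of the other changes were not tested. The earliest table holds no FXLE/LEXF strain, and F344/Stm minus LE/Stm could not be fitted without the only LE/Stm animal. Depth is unknown, so what it limits cannot be given.

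Replicate numbers only name the animals of a strain. With the replicate number as a block, 6 members passed over all strains, 0 in HXB/BXH, 0 in FXLE/LEXF, 2 among classic inbred strains and 0 in each contrast, with 4 transcripts over all strains, 2 in HXB/BXH and 16 genes of the wider list.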
